A study of Homo sapiens with 6 samples.

Results

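The TNF superfamily comprises ligands that are mostly trimeric membrane proteins and receptors with cysteine-rich extracellular repeats. Receptors with a death domain can start apoptosis, others recruit TRAF adaptors and activate NF-κB and JNK, and decoy receptors bind a ligand without passing on a signal. In fibroblasts the family is known for inflammatory signalling through the TNF receptors, for T cell costimulatory ligands such as OX40L and for the secreted decoy osteoprotegerin. The present account covers 10 genes of this family, 4 ligands and 6 receptors, out of 25368 gene symbols in each of 2 expression tables. The ligands are TNFSF4, TNFSF10, TNFSF15 and TNFSF18, and the receptors are TNFRSF1A, TNFRSF1B, TNFRSF10D, TNFRSF11B, TNFRSF12A and TNFRSF21. They were taken by symbol, and TNFSF4 and TNFSF18 were picked on their FPKM differences between the libraries described here, so all values of the members are given as a description.

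The 6 RNA-seq libraries were made from MRC5, human fibroblasts of embryonic lung that the study immortalized with hTERT. In the adenovirus experiment, MRC5 cells were infected with virus that carried an empty vector (control), FLAG-tagged wild-type JUN (JUN WT) or FLAG-tagged JUN with alanine at its JNK phosphorylation sites (JUN AA), so all 3 libraries shared the infection. In the tumor medium experiment, untreated MRC5 cells were compared with induced CAFs (iCAFs), made from MRC5 by 7 days in conditional medium of MDA-MB-231 human breast cancer cells, and with iCAFs that received 1 µM of the JNK inhibitor JNK-IN-8 for 48 h (iCAFs+JNKi). The protocol names a DMSO vehicle, but the label of the iCAFs library does not say whether it was used there. The model is 1 cell line with bulk RNA, in which fewer expressing cells and less RNA per cell cannot be told apart. Each condition had 1 library, so no difference has a replicate check, no error or p-value is given, and the differences are those between libraries.

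Levels are the deposited FPKM, which are scaled by exon length and by mapped fragments, so that levels of different genes can be set side by side. The number of reads is unknown. FPKM summed to between 494603 and 613184 in the adenovirus experiment and to between 359944 and 399532 in the tumor medium experiment, and values were compared only within an experiment. Differences are in log2(FPKM + 1), which compresses the differences of genes with low values, and a gene counted as measured at a mean of at least 1 FPKM over the 3 libraries of its experiment. A difference of at least 1 on this scale is called 2-fold. JUN was at 25.5 (control), 4543 (JUN WT) and 291 FPKM (JUN AA), and at 57.1, 55.3 and 21.1 FPKM in MRC5, iCAFs and iCAFs+JNKi. All 8 fibroblast markers examined were at 1 FPKM or more in each of the 6 libraries. Among epithelial markers, CDH1 and KRT5 were listed at 0 in all 6 libraries and the 6 markers summed to at most 2.49 FPKM. Among leukocyte markers, CD3E was listed at 0 in all 6 libraries, and LYZ was at 2.03 FPKM in JUN AA. Of the 4 endothelial markers, CDH5 was listed at 0 in all 6 libraries, and TEK was at 10.4 FPKM in iCAFs+JNKi.

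TNFSF4, TNFSF18 and TNFSF15 carried the largest differences among the members, and their upstream sequences are shown because the study perturbs JUN, a subunit of AP-1. Each line holds the 250 bases before the RefSeq start on GRCh38.p14, read on the minus strand from 5′ to 3′, and capitals mark the AP-1 heptamer. TNFSF4 lies at chr1:173205533-173205782 with a GC content of 48%, TNFSF18 at chr1:173050942-173051191 with 38.8% and TNFSF15 at chr9:114792531-114792780 with 50%.
TNFSF4: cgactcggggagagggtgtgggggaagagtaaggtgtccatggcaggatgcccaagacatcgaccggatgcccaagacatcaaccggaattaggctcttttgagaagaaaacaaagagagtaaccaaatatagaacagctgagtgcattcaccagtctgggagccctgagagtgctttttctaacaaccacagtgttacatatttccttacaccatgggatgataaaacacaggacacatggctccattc
TNFSF18: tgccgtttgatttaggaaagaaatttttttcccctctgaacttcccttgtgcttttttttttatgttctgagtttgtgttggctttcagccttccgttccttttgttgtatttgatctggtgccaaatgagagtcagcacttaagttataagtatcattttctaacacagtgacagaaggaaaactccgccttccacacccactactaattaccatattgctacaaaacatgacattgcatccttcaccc
TNFSF15: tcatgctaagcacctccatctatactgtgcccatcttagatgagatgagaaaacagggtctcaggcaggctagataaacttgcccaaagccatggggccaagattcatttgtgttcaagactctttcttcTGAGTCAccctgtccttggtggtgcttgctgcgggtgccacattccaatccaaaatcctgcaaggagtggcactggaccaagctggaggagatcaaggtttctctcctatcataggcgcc

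The AP-1 heptamer TGACTCA, or TGAGTCA on the other strand, was found in 1 of the 7 member promoters in the RefSeq table, that of TNFSF15, where it begins at position -120 from the start. With any central base (TGANTCA) the count was the same. Of 35116 promoters of the same length, 4.95% hold the heptamer and 7.71% the form with any central base. The windows of TNFSF4 and TNFSF18 hold neither form. The cAMP response element TGACGTCA was in 0 of the 7 and in 1.85% of all promoters. Each motif was searched on both strands. A match is a description of the letters, and the window covers 250 bases before and 50 after the start.

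TNFSF4 encodes OX40L, which costimulates T cells through the receptor OX40. It was at 14.4 (MRC5), 6.25 (iCAFs) and 23.1 FPKM (iCAFs+JNKi). The iCAFs library was thus the lowest and the JNK-inhibited library the highest. The log2 difference from MRC5 to iCAFs was -1.09 and that from iCAFs to iCAFs+JNKi 1.73, the latter a ratio of 3.69. Of the 11780 measured genes, 0.645% had a larger positive difference with JNKi. Since TNFSF4 was picked for its differences, its place among all genes is a description only. Against MRC5, iCAFs+JNKi was higher by 0.64. After infection TNFSF4 was at 3.83 (control), 1.20 (JUN WT) and 0.711 FPKM (JUN AA). Both JUN libraries were below the control, by log2 differences of -1.13 and -1.50. Of the 10311 measured genes, 2.43% and 1.13% differed further downwards. TNFSF4 passed the filter there only through the control library, where it was high, so nothing is read from these shares. JUN WT and JUN AA differed by 0.37 for TNFSF4, near 1 FPKM in both. OX40 itself, encoded by TNFRSF4, was at no more than 0.195 FPKM in any of the 6 libraries.

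TNFSF18 encodes GITRL, the ligand of the T cell receptor GITR. It was at 0.418 (MRC5), 1.18 (iCAFs) and 11.2 FPKM (iCAFs+JNKi). The JNK-inhibited library was the high one. The log2 difference from MRC5 to iCAFs was 0.62 and that from iCAFs to iCAFs+JNKi 2.48, a ratio of 9.49, and 20 of the 11780 measured genes had a larger positive difference with JNKi. TNFSF18 was picked for its values and passed the filter on low values only through the iCAFs+JNKi library. Its place among all genes is thus a description only. In the adenovirus experiment it was listed at 0 in control, with 0.261 and 0.133 FPKM in the JUN WT and JUN AA libraries, and it was not measured there by the rule on low values. GITR, encoded by TNFRSF18, was listed at 0 in all 3 libraries of the tumor medium experiment and at no more than 0.0496 FPKM in the adenovirus experiment.

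TNFSF18 and TNFSF4 are neighbors on the minus strand of chromosome 1. On GRCh37 they run from 173008342 to 173020081 and from 173152870 to 173176470, with 132789 bases and no annotated protein-coding gene between them. Neither shares exon bases with another annotated gene. A window reaching 500000 bases to each side of the pair holds 7 protein-coding genes of the tables, among them FASLG, another ligand of the family. In iCAFs+JNKi against iCAFs, the log2 differences of TNFSF18 and TNFSF4 were 2.48 and 1.73, and those of the other 3 genes above 0 FPKM, SUCO, PRDX6 and ANKRD45, were 0.10, 0.22 and -0.11. SUCO was at 16.7 FPKM in iCAFs as against 17.9 FPKM in iCAFs+JNKi, and PRDX6 at 234 and 272 FPKM. ANKRD45 was at 0.079 and 0 FPKM, below the filter, so its difference cannot be read. FASLG and SLC9C2 were listed at 0 in all 6 libraries. In iCAFs against MRC5, the pair differed in direction, with 0.62 for TNFSF18 and -1.09 for TNFSF4. TNFSF18 and TNFSF4 were picked for their values, so their distance from the neighboring genes is a description only. The differences are plotted by distance from the start of TNFSF4.

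**Figure D1:**
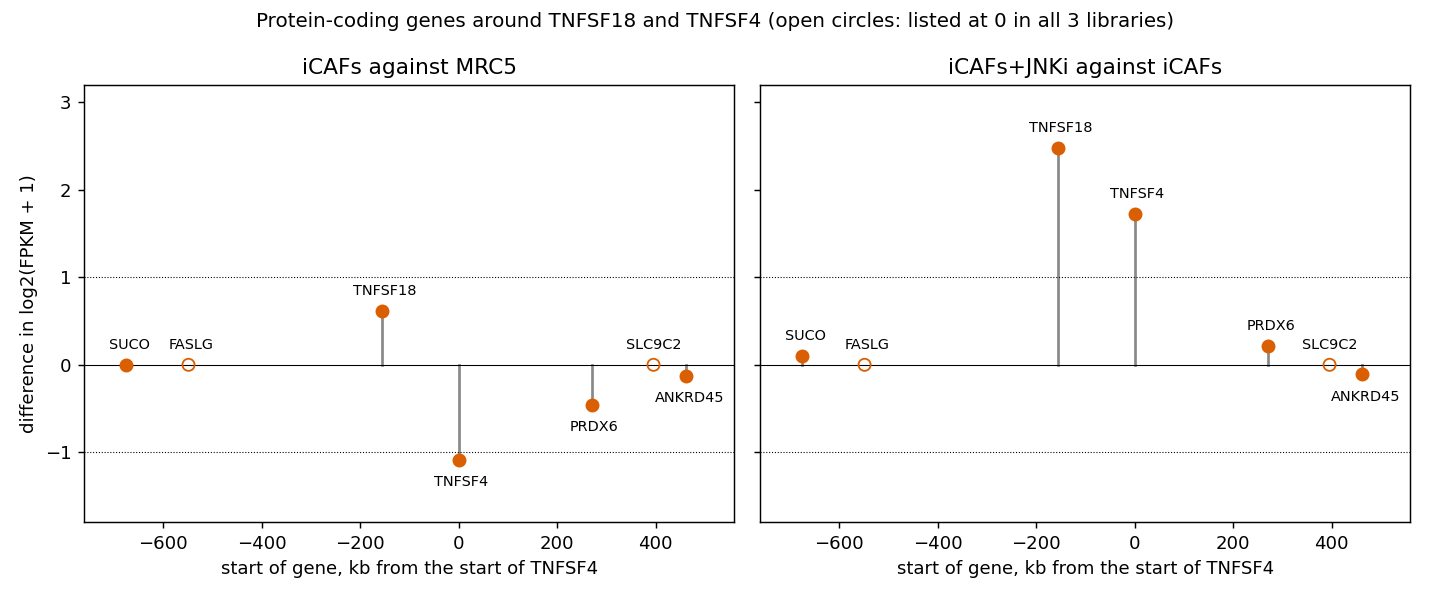
Difference in log2(FPKM + 1) of the 7 protein-coding genes around TNFSF18 and TNFSF4 (y axis) against the distance of each gene's start from that of TNFSF4 in kb (x axis), for tumor medium (iCAFs minus MRC5) and for JNKi (iCAFs+JNKi minus iCAFs), with 1 library per condition. With JNKi, TNFSF18 and TNFSF4, which were picked for their values, stand at 2.48 and 1.73. The other genes lie between -0.11 and 0.22, of which ANKRD45 is below 1 FPKM. Open circles are genes listed at 0.

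TNFSF15 encodes TL1A, a ligand of the death receptor DR3 and of a secreted decoy. It was at 0.0704 (MRC5), 6.36 (iCAFs) and 2.93 FPKM (iCAFs+JNKi). Both libraries from tumor medium were above the untreated one, and the iCAFs library was the highest. The log2 difference in iCAFs against MRC5 was 2.78, and 30 of the 11780 measured genes had a larger positive difference. With JNKi the difference from iCAFs was -0.90, a ratio of 0.461, and 2.50% of the measured genes differed further downwards. TNFSF15 passed the filter through the libraries from tumor medium alone, and its value in MRC5 is too low for a fold change to be read. In the adenovirus experiment it was at 0.154, 0.0675 and 0.0137 FPKM in control, JUN WT and JUN AA and did not pass the filter. On GRCh37 it lies on the minus strand of chromosome 9 from 117546932 to 117568319. DR3, encoded by TNFRSF25, was at 2.62 (MRC5), 1.74 (iCAFs) and 0.749 FPKM (iCAFs+JNKi).

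TNFSF10 encodes TRAIL, a ligand that starts apoptosis through death receptors and is known as an interferon-induced gene. It was at 0.406 (control), 0.190 (JUN WT) and 0.0265 FPKM (JUN AA). In the tumor medium experiment it was listed at 0 in MRC5 and iCAFs and at 0.0573 FPKM in iCAFs+JNKi. It was below the filter in both experiments, and at an unknown number of reads no difference can be read from these values. IFNB1, which encodes interferon β, was at 0.381, 11.3 and 0 FPKM in control, JUN WT and JUN AA.

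**Figure D2:**
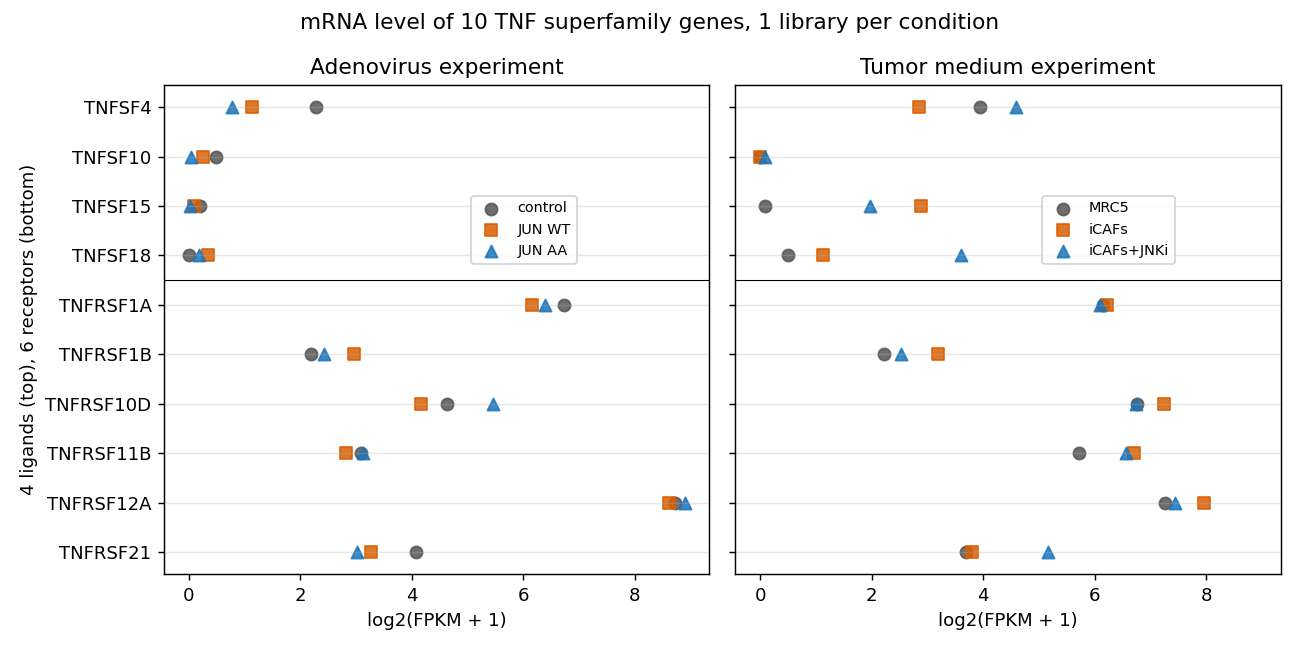
Level in log2(FPKM + 1) of the 4 ligands and 6 receptors (rows) in the 3 libraries of the adenovirus experiment and the 3 libraries of the tumor medium experiment, 1 point per library. TNFRSF12A is the highest member in each library, and the ligands lie below most of the receptors.

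The receptors were the more abundant side of the family, as the plot of levels by library shows. The 6 receptors summed to between 398 and 619 FPKM in the 6 libraries, and the 4 ligands to between 0.885 and 37.2 FPKM. In the tumor medium experiment the summed ligands were at 14.9 (MRC5), 13.8 (iCAFs) and 37.2 FPKM (iCAFs+JNKi). TNFRSF12A was the highest member in every library, with 33.5% to 40.9% of the summed FPKM of the 10 genes in the tumor medium experiment and 72.4% to 78.0% in the adenovirus experiment. In MRC5 it was followed by TNFRSF10D, TNFRSF1A and TNFRSF11B at 107, 70 and 51.9 FPKM, and in control by TNFRSF1A and TNFRSF10D at 105 and 23.8 FPKM. With 1 library per condition, no spread is available to say which neighbors in this order differ.

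TNFRSF21 encodes the death receptor DR6. It was at 12 (MRC5), 13.0 (iCAFs) and 34.7 FPKM (iCAFs+JNKi). MRC5 and iCAFs were close and the JNK-inhibited library was higher, by a log2 difference of 1.35 and a ratio of 2.68 to iCAFs, and 1.23% of the measured genes had a larger positive difference. In the adenovirus experiment it was at 15.8 (control), 8.61 (JUN WT) and 7.05 FPKM (JUN AA). Both JUN libraries were below the control, by -0.81 and -1.06. Among the 6 member receptors, TNFRSF21 was the only one with a difference of 2-fold in iCAFs+JNKi against iCAFs, where 2.25% of all measured genes were 2-fold higher. It was also the only one in JUN AA against control, where 3.77% of all measured genes were 2-fold lower. There it lay just past the limit, and it was at -0.90 with the GC trend removed. It lies on the minus strand of chromosome 6 of GRCh37 from 47199268 to 47277641.

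TNFRSF1A and TNFRSF1B encode the receptors of TNF, the former with a death domain and the latter without. TNFRSF1A was at 70, 74.1 and 67.2 FPKM in MRC5, iCAFs and iCAFs+JNKi. These values lie within a log2 difference of 0.14 of each other. After infection TNFRSF1A was at 105 (control), 70.6 (JUN WT) and 83.1 FPKM (JUN AA), with differences of -0.57 and -0.34. TNFRSF1B was at 3.67 (MRC5), 8.16 (iCAFs) and 4.80 FPKM (iCAFs+JNKi). Its difference in iCAFs against MRC5 was 0.97, just under the limit on this scale while the FPKM ratio was 2.23, and with JNKi it was -0.66. In control, JUN WT and JUN AA, TNFRSF1B was at 3.56, 6.74 and 4.34 FPKM, and its difference of 0.76 in JUN WT was the only positive one among the 7 measured members in that comparison. TNF itself was listed at 0 in all 3 libraries of the tumor medium experiment and at no more than 0.0254 FPKM in the adenovirus experiment. On GRCh37, TNFRSF1A runs from 6437923 to 6451280 on the minus strand of chromosome 12 and TNFRSF1B from 12227048 to 12269285 on the plus strand of chromosome 1.

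TNFRSF11B encodes osteoprotegerin, a secreted decoy for RANKL and TRAIL, and TNFRSF10D a membrane-bound decoy receptor for TRAIL. TNFRSF11B was at 51.9 (MRC5), 103 (iCAFs) and 93.7 FPKM (iCAFs+JNKi). Both libraries from tumor medium were above the untreated one, by 0.98 and 0.84, and differed from each other by -0.14. In control, JUN WT and JUN AA it was at 7.5, 6.07 and 7.74 FPKM. RANKL, encoded by TNFSF11, was listed at 0 in all 6 libraries. TNFRSF10D was at 107 (MRC5), 150 (iCAFs) and 106 FPKM (iCAFs+JNKi), so that the JNK-inhibited library stood where the untreated one did. After infection TNFRSF10D was at 23.8 (control), 16.9 (JUN WT) and 42.7 FPKM (JUN AA). JUN WT lay below JUN AA by a log2 difference of -1.29, and 2.83% of the measured genes differed further downwards in that comparison. It was the only measured member with a 2-fold difference between JUN WT and JUN AA (1 of 7 lower, where 5.61% of all measured genes were 2-fold lower, and 0 of 7 higher, where 6.65% were). TNFRSF10D belongs to a group of similar receptor genes on chromosome 8, and how reads common to them were divided is not known. TNFRSF11B lies on the same chromosome.

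TNFRSF12A encodes Fn14, the receptor of TWEAK. It was at 153 (MRC5), 250 (iCAFs) and 173 FPKM (iCAFs+JNKi), with differences of 0.70 in iCAFs against MRC5 and -0.53 with JNKi. The iCAFs library was the highest of these 3. In control, JUN WT and JUN AA it was at 421, 392 and 474 FPKM, and the differences against control of -0.10 and 0.17 turned to 0.20 with the GC trend removed and to -0.14 with FPKM rescaled to the same sum. TWEAK, encoded by TNFSF12, was at 20.5, 18 and 19.8 FPKM in MRC5, iCAFs and iCAFs+JNKi and at 11.4, 15.1 and 14.4 FPKM in control, JUN WT and JUN AA. TNFRSF12A runs from 3068446 to 3072384 on the plus strand of chromosome 16 of GRCh37 and shares exon bases with CLDN6 on the opposite strand, which was at no more than 0.170 FPKM in any library.

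**Figure D3:**
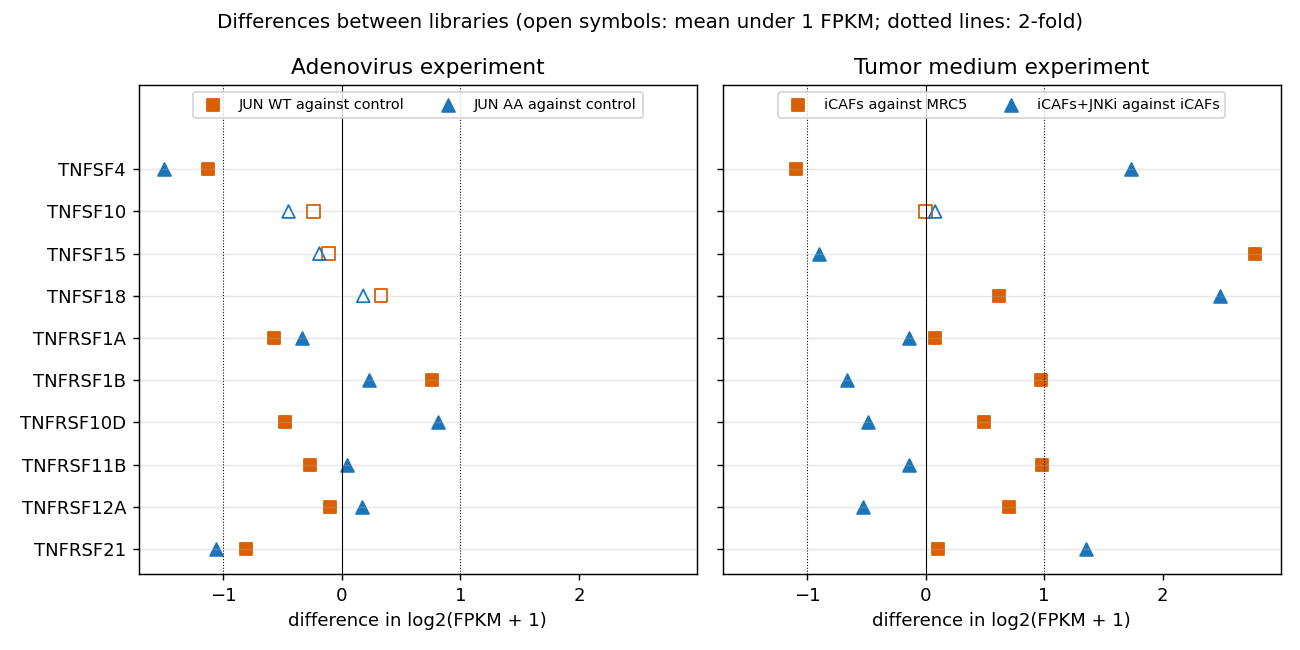
Difference in log2(FPKM + 1) of each member (x axis) for JUN WT and JUN AA minus control, iCAFs minus MRC5 and iCAFs+JNKi minus iCAFs, 1 library per condition; open symbols mark genes with a mean under 1 FPKM and dotted lines a 2-fold difference. In iCAFs against MRC5, all 6 receptors lie to the right of 0, from 0.08 to 0.98, as do 40.6% of all measured genes. With JNKi, 5 of the 6 lie to the left, as do 62.6% of all measured genes. The 2 comparisons share the iCAFs library.

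In iCAFs against MRC5, 9 of the 10 members were measured. Of these, 8 were higher and 1, TNFSF4, was lower, where 40.6% of all measured genes were higher. TNFSF15 was the only one at least 2-fold higher (1 of 9, background 1.94%) and TNFSF4 the only one at least 2-fold lower (background 1.71%). TNFRSF11B and TNFRSF1B, at 0.98 and 0.97, lay just under the limit, and they passed it at 1.04 and 1.03 with differences centred on the median gene, which made the count 3 of 9. The 6 receptors had a median of 0.59, and all measured genes a median of -0.06. TNFSF15 and TNFSF18 were measured only because libraries from tumor medium raised their means, so the counts over measured members do not stand for all 10. TNFSF4, the only member 2-fold lower, was picked for its values, so nothing is read from that count. Of the 8 fibroblast markers, 7 were lower in iCAFs than in MRC5 and 1 at least 2-fold, with a median of -0.32. Of all 11780 measured genes, 7000 were lower. The part of the markers in these values was not tested.

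In iCAFs+JNKi against iCAFs, TNFSF4, TNFSF18 and TNFRSF21 were at least 2-fold higher, 3 of 9 measured members (background 2.25%). TNFSF4 and TNFSF18 were picked for their values, and TNFSF18 passed the filter only through the JNK-inhibited library. Nothing is therefore read from the count of 3. None of the 9 was 2-fold lower, where 1.97% of all measured genes were, and TNFSF15 at -0.90 came nearest. Of the 6 receptors, TNFRSF1A, TNFRSF1B, TNFRSF10D, TNFRSF11B and TNFRSF12A were lower, by -0.14 to -0.66, and 62.6% of all measured genes were lower. Of the 8 fibroblast markers, 7 were higher with JNKi and 4 (COL1A1, COL3A1, PDGFRB and DCN) at least 2-fold. Of all 11780 measured genes, 4406 were higher. The summed level of the 8 markers was 4003 FPKM in iCAFs as against 6143 FPKM in iCAFs+JNKi. The endothelial marker TEK was at 3.77 FPKM in iCAFs and at 10.4 FPKM with JNKi, a difference of 1.26, with CDH5 listed at 0, and the leukocyte marker CD14 at 0.128 and 0.820 FPKM, below the filter. The part of these markers in the result was not tested. Set against untreated MRC5, iCAFs+JNKi was at least 2-fold higher for TNFSF15, TNFSF18 and TNFRSF21, by 1.88, 3.10 and 1.45 (background 3.28%), and for no member 2-fold lower (background 3.53%). Nothing is read from this count, since TNFSF18 was picked for its values and TNFSF15 and TNFSF18 passed the filter only through libraries in which they were high, and at a mean of at least 5 FPKM it was 1.

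In JUN WT against control, 7 of the 10 members were measured, and 6 of the 7 were lower, where 39.1% of all measured genes were. Of these 6, TNFRSF12A turned from -0.10 to 0.20 with the GC trend removed. The median of the 7 was -0.48 and that of all measured genes 0.15. Only TNFSF4 was 2-fold lower (background 3.39%), joined by TNFRSF21 at -1.11 with the GC trend removed, and none was 2-fold higher (background 6.92%). In JUN AA against control, 4 of the 7 were higher, where 48.6% of all measured genes were, and 3 were lower, with a median of 0.04. With FPKM rescaled to the same sum, TNFRSF1B, TNFRSF11B and TNFRSF12A turned from 0.23, 0.04 and 0.17 to -0.02, -0.25 and -0.14, so the direction of these 3 receptors in JUN AA depends on scaling. TNFSF4 and TNFRSF21 were 2-fold lower in JUN AA (2 of 7, background 3.77%), of which TNFRSF21 was at -0.90 with the GC trend removed, and none was 2-fold higher (background 5.29%). Both comparisons share the control library. TNFSF4 was picked for its values and passed the filter only through the control library. Nothing is thus read from the counts of lower members, 2-fold or of any size, in either comparison. Of the 8 fibroblast markers, 2 were 2-fold lower in JUN WT and 2 in JUN AA, with medians of -0.49 and -0.45, and their summed level was 6157, 5508 and 4403 FPKM in control, JUN WT and JUN AA; their part in these values was not tested.

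**Figure D4:**
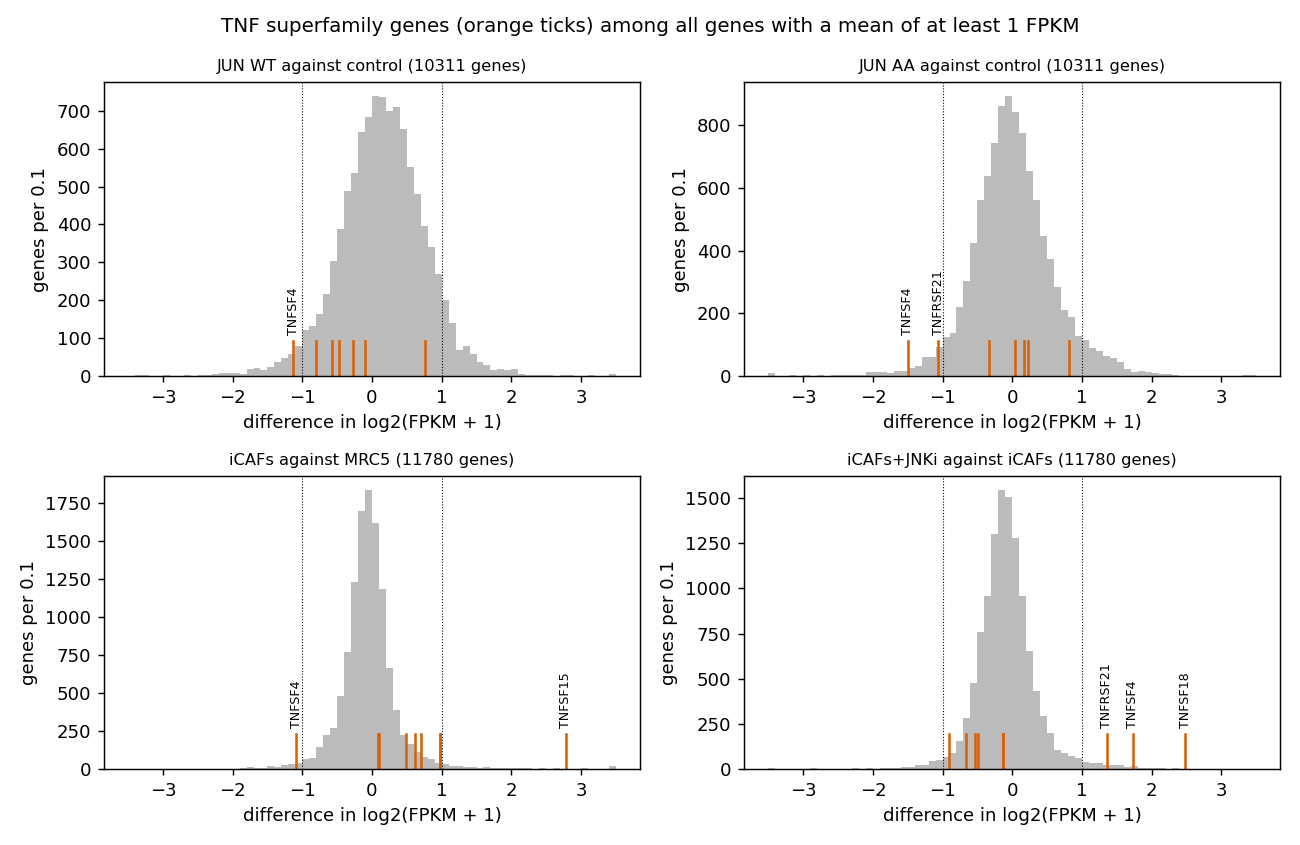
Number of genes per 0.1 of the difference in log2(FPKM + 1) (grey), over measured genes, in 4 comparisons of 1 library each; values beyond the axis are in the outermost bars, orange ticks mark the measured members and names those at 2-fold or more. In iCAFs+JNKi against iCAFs, TNFRSF21, TNFSF4 and TNFSF18 stand at 1.35, 1.73 and 2.48 in the upper tail. TNFSF4 and TNFSF18 were picked for their values.

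Of the other 14 ligands of the family, TNFSF9, TNFSF12 and TNFSF13 were measured in each experiment. None of the 3 differed 2-fold in the tumor medium comparisons, where 1.71% to 3.53% of all measured genes did in each direction. TNFSF9, which encodes the costimulatory ligand 4-1BBL, was at 3.65 (control), 3.16 (JUN WT) and 0.845 FPKM (JUN AA), a difference of -1.33 in JUN AA against control. TNFSF13, which encodes APRIL, had 0.737, 2.53 and 0.744 FPKM in the same order. It passed the filter there only through the JUN WT library, where it was high, and its difference of 1.02 from control no longer passed the limit with centring. The readthrough gene TNFSF12-TNFSF13, which shares its sequence, was at 0.967, 0 and 0.744 FPKM. Whether the division of reads between them has a part in these values was not tested.

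Of the other 23 receptors, 9 were measured in the adenovirus experiment and 10 in the tumor medium experiment. In JUN WT against control 1 of the 9, RELT, was 2-fold higher (background 6.92%) and 1, TNFRSF14, was lower (background 3.39%), and with centring on the median gene RELT no longer passed the limit. TNFRSF14, which encodes HVEM, was at 9.38 (control), 2.39 (JUN WT) and 2.64 FPKM (JUN AA). RELT was at 3.54, 9.03 and 4.53 FPKM. In JUN AA against control 3 of the 9 were 2-fold lower (background 3.77%) and none higher (background 5.29%), and the count of 3 became 2 with the GC trend removed and 1 at a mean of at least 5 FPKM. Besides TNFRSF14 these were TNFRSF10B, a death receptor for TRAIL, at 43.9 (control), 34.5 (JUN WT) and 17.0 FPKM (JUN AA), and TNFRSF10C, a further decoy for TRAIL, at 2.58, 2.40 and 0.650 FPKM. TNFRSF10A, the other death receptor for TRAIL, was at 2.37, 3.96 and 1.82 FPKM. In the tumor medium experiment none of the 10 differed 2-fold in iCAFs or with JNKi, where 1.71% to 2.25% of all measured genes did in each direction. Only TNFRSF25 was 2-fold lower in iCAFs+JNKi against MRC5 (1 of 10, background 3.53%). Their medians were -0.10 in iCAFs against MRC5 and -0.23 with JNKi.

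Of 24 adaptors and signal transducers of the receptors, 19 were measured in the adenovirus experiment and 20 in the tumor medium experiment. In the latter none differed 2-fold in any of the 3 comparisons, where 1.71% to 3.53% of all measured genes did in each direction. Their differences with JNKi ran from -0.65 to 0.45. In JUN WT against control 2 of the 19 were 2-fold higher (background 6.92%) and 1 lower (background 3.39%), and their median was 0.27 beside 0.15 for all measured genes. TRAF1, an adaptor whose gene is known as an NF-κB target, was at 0.325 (control), 2.70 (JUN WT) and 0.601 FPKM (JUN AA), and it passed the filter only through the JUN WT library, where it was high. CFLAR, which encodes the caspase-8 inhibitor c-FLIP, was at 2.74, 6.51 and 4.65 FPKM, a difference of 1.01 that no longer passed the limit with centring. TRAF4 was at 81.7 (control), 26.7 (JUN WT) and 78.0 FPKM (JUN AA), so that JUN WT was the low library. In JUN AA against control none of the 19 differed 2-fold (background 5.29% higher and 3.77% lower).

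Of 6 genes named after TNF, most for their induction by it, all were measured in the tumor medium experiment. TNFAIP3, which encodes the NF-κB inhibitor A20, was at 1.64 (MRC5), 14.7 (iCAFs) and 6.44 FPKM (iCAFs+JNKi), with differences of 2.58 and -1.08, the latter under the limit with centring. TNFAIP2 and C1QTNF1 were the others at least 2-fold higher in iCAFs against MRC5 (3 of 6, background 1.94%), at 8.19 and 18.4 FPKM and at 12.8 and 28.2 FPKM. TNFAIP6, which encodes the hyaluronan-binding protein TSG-6, was at 0.477, 0.865 and 4.09 FPKM in MRC5, iCAFs and iCAFs+JNKi, with a difference of 1.45 with JNKi, and at 1.70, 3.29 and 5.92 FPKM in control, JUN WT and JUN AA. It was thus highest in the libraries with JNK inhibition or JUN AA, though it passed the filter in the tumor medium experiment through the JNK-inhibited library alone. The rest of the list went the other way. With JNKi 5 of the 6 were lower (62.6% of all measured genes). In JUN AA against control only TNFAIP6 of the 5 measured was higher (48.6% of all measured genes), and the median was -0.56. C1QTNF1 was 2-fold lower there, at 8.65 (control), 8.74 (JUN WT) and 3.36 FPKM (JUN AA).

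The genes nearest in pattern to TNFSF4 and TNFSF18 were those with the smallest Euclidean distance over 4 differences (JUN WT and JUN AA against control, iCAFs against MRC5, iCAFs+JNKi against iCAFs) in the 6 libraries, among 10020 genes measured in both experiments. For TNFSF4 these were BMP4, INMT, LMOD1, DAAM2 and PRSS23, at distances of 0.44 to 0.82. BMP4, a secreted growth factor, was at 12.6, 3.74 and 4.54 FPKM in control, JUN WT and JUN AA and at 9.07, 3.57 and 14.8 FPKM in MRC5, iCAFs and iCAFs+JNKi. For TNFSF18 they were LMCD1, NPR3, DNAJC25-GNG10, ARSI and RPL13A, at distances of 0.69 to 1.15. Of the 4 differences, the 2 from the adenovirus experiment were computed for TNFSF18 from values below the filter, so its nearest genes are given only as a list. LMCD1, listed likewise, was at 18.4, 27.5 and 17.7 FPKM after infection and at 2.27, 2.36 and 15.7 FPKM in the tumor medium experiment. DNAJC25-GNG10 is a readthrough gene and RPL13A has processed copies, so their values may depend on how reads were divided. Of the 11780 genes measured in the tumor medium experiment, 34 were, like TNFSF4, 2-fold lower in iCAFs against MRC5 and 2-fold higher in iCAFs+JNKi against iCAFs. The 2 comparisons share the iCAFs library.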

How the data were processed

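Data were 2 tables with 1 column for each of 6 libraries, matched by name to the sample labels. The authors mapped reads to hg19 with HISAT2 2.1.0 at default parameters and deposited FPKM per gene from StringTie 2.1.1 (versions per the labels). The annotation and the strand setting are not given in the sources used here, so reads of overlapping genes on opposite strands may not be separated. FPKM are not counts, depth is unknown and no count model was used. Each table has 25370 rows and 25368 symbols, and a symbol listed more than once was represented by its highest row. Differences in log2(FPKM + 1) were computed within a table for 6 comparisons with Python 3.11.15, numpy 2.4.6 and pandas 2.3.3, over genes averaging 1 FPKM or more. With 1 library per condition no test was made. The members, the gene lists and the rule for named genes were chosen with earlier results of these data known. The rule names all 10 members, listed genes that differ at least 2-fold, and the 5 nearest genes of TNFSF4 and TNFSF18. Values of the ligands or receptors that pair with a member, and of TNFSF12-TNFSF13 and CLDN6, were added after they were seen. Gene positions and GC content come from GRCh37 with GENCODE and promoters from RefSeq on GRCh38.p14, where 7 of the 10 members matched. The computation was tested on simulated data. Alternatives tried were 0.1 as pseudocount, a common FPKM sum of 1000000, centring on the median gene, removal of the GC trend in 20 bins, no filter, a filter of 5 FPKM and a log2 threshold of 0.58. Figures were drawn with matplotlib 3.10.9. The value of 1 leukocyte marker and the sum over that list are not reported here.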

Additional observations from a re-analysis of the deposited data

How the results depend on the processing

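Each member had a value in 6 comparisons, and no 2-fold call among these 60 differences reversed under the 4 scaling alternatives. Only differences of 2-fold or more could count as reversed. Some smaller ones changed sign, such as TNFRSF21 in JUN WT against JUN AA, from 0.26 to -0.21 with the GC trend removed. A difference moved by 0.25 or more on the log2 scale in 19 of 60 cases with a pseudocount of 0.1. The count was 20 of 60 with FPKM rescaled to the same sum and 11 of 60 with the GC trend removed. With centring it was 0 of 60, which was fixed in advance. Centring shifts every gene of a comparison by the median difference, which was at most 0.184 in size. Counts of members at 2-fold moved as follows. In iCAFs against MRC5 the higher members numbered 3 in place of 1 with a pseudocount of 0.1, with rescaled FPKM, with centring and with the GC trend removed, 0 at a mean of at least 5 FPKM and 5 at a log2 threshold of 0.58. In JUN WT against control the lower members numbered 2 in place of 1 with the GC trend removed and at 0.58, and 0 at 5 FPKM, and the higher ones 1 in place of 0 at 0.58. In JUN AA against control the lower ones numbered 1 in place of 2 with the GC trend removed and at 5 FPKM, and the higher ones 1 in place of 0 at 0.58. In iCAFs+JNKi against iCAFs the lower ones numbered 1 in place of 0 with a pseudocount of 0.1 and 2 at 0.58, and the higher ones numbered 3 under 6 of the 7 alternatives and 2 at 5 FPKM. In iCAFs+JNKi against MRC5 the higher ones numbered 1 in place of 3 at 5 FPKM and 5 at 0.58. A higher filter removes genes and a lower threshold adds them by construction, and otherwise the cause was not tested.

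Over all genes, rescaling moved the median difference from -0.015 to -0.290 in JUN AA against control, from 0.184 to 0.466 in JUN WT against JUN AA, from -0.099 to 0.014 in iCAFs+JNKi against iCAFs and from -0.164 to -0.038 in iCAFs+JNKi against MRC5. In JUN WT against control the median was 0.149, and the 714 genes at least 2-fold higher became 1229 with a pseudocount of 0.1, 436 with centring, 345 with the GC trend removed and 458 at 5 FPKM. The share of higher genes among those at 2-fold was 67.1% there and became 45.5% with centring and 50.5% with the GC trend removed. In JUN AA the 545 higher and 389 lower became 338 and 957 with rescaled FPKM, a share of 26.1% in place of 58.4%. In JUN WT against JUN AA the share of 54.3% became 82.9% with rescaled FPKM, 33.3% with centring and 38.5% with the GC trend removed. In iCAFs+JNKi against iCAFs 53.3% became 64.0% with centring and 66.2% with the GC trend removed, and against MRC5 48.1% became 59.3%, 65.9% and 68.2% with rescaling, centring and the GC trend removed. Of 312 values of the further lists under the alternatives, 76 moved. GC content was found for 91.1% of the measured genes in the adenovirus experiment and 90.4% in the tumor medium experiment. No paired analysis was possible because each condition has 1 library and the labels carry no replicate numbers. Without replicates or read numbers, the precision of single values, above all those under 1 FPKM, is unknown.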

Other observations

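Several further genes of the family pathway were below the filter of 1 FPKM on the mean and are given as values only, chosen after their values were seen. BIRC3, which encodes the TRAF-binding inhibitor of apoptosis cIAP2, was at 0.340 (MRC5), 1.51 (iCAFs) and 0.186 FPKM (iCAFs+JNKi). For TNFRSF6B, which encodes the secreted decoy that binds TL1A, the values were 0.0339, 0.0803 and 1.20 FPKM in that order. TNFSF13B, which encodes the B cell survival factor BAFF, was at 0.173 (control), 0.916 (JUN WT) and 0.0624 FPKM (JUN AA). TNFAIP3 was at 0.618 (control), 2.08 (JUN WT) and 0.294 FPKM (JUN AA), just below the filter with a mean of 0.998 FPKM. JUN WT was the highest library for both of these genes.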
